A study of Mus musculus with 6 samples.

Results

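Gdpd2, Gdpd1, Gdpd5 and Gde1, which encode glycerophosphodiester phosphodiesterases, were followed in MC3T3-E1 cells, a mouse pre-osteoblastic cell line. They are 4 of the 15796 genes in the deposited expression table. The genes were chosen by name, because the difference of Gdpd2 between the groups was already known from these same libraries. Their differences between the groups are therefore given as a description, with no test. RNA was sequenced from 3 libraries of cells transfected with a plasmid carrying Hsd11b1 (overexpression 1 to 3) and from 3 libraries of cells transfected with a plasmid carrying EGFP (control 1 to 3), whose genotype is labelled WT. Hsd11b1 encodes 11β-HSD1, the enzyme that turns inert 11-dehydrocorticosterone (11-DHC) into the active glucocorticoid corticosterone inside the cell. All 6 libraries, controls included, came from cells incubated with 11-DHC, so the groups differ by the plasmid. The sources used here give neither the dose and time of 11-DHC, nor the promoter of the plasmid, nor whether replicates were separate cultures. Each p-value therefore reflects the spread among these libraries alone, which may be technical.

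Glycerophosphodiester phosphodiesterases cut the phosphodiester bond of glycerophosphodiesters, the water-soluble remnants left when both fatty acids are taken off a membrane phospholipid. Other members act instead on lysophospholipids, and certain transmembrane members face outwards and release proteins held at the cell surface by a glycosylphosphatidylinositol (GPI) anchor. Gdpd2 encodes a transmembrane member that hydrolyses glycerophosphoinositol and is known as a factor that promotes osteoblast differentiation in mouse osteoblast-like cells. Gdpd5 encodes its close relative, known from neurons for releasing GPI-anchored proteins such as RECK. Gdpd1 encodes a lysophospholipase D that yields lysophosphatidic acid, and Gde1 a broadly expressed membrane enzyme that acts on glycerophosphoinositol and on glycerophospho-N-acylethanolamines.

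Totals recovered from the values were 18290794, 18655704 and 58665346 reads in overexpression 1 to 3 and 19932451, 34948121 and 16264247 reads in control 1 to 3. The deepest library of each group, overexpression 3 and control 2, stood apart from the others on the second principal component (19.5% of the variance), with scores of -10.4 and -11.8 where the other 4 libraries lay between -2.3 and 12.7. Hsd11b1 itself had an FPKM (fragments scaled by exon length and library total) of 323, 315 and 345 in overexpression 1 to 3 and 1.90, 0.404 and 0.275 in control 1 to 3, as the labels say. Of 12 osteoblast markers 10 were listed, Runx2, Sp7 and Col1a1 among them, while Alpl and Bglap were not. The osteoblast markers, 8 of them averaging 1 FPKM or more, summed to 1840 to 1920 FPKM with overexpression and 2076 to 2225 FPKM in controls. Such a sum is led by its most abundant genes and gives no direction for single markers. Macrophage markers, 3 of 7 listed and Ptprc not among them, summed to 9.03 to 9.74 FPKM with overexpression and 9.01 to 10.5 FPKM in controls. Endothelial markers (2 of 5 listed) summed to 0.346 to 0.408 FPKM with overexpression and 0.240 to 0.283 FPKM in controls. Adipocyte markers (Fabp4 as 1 of 5 listed) reached 1.14 to 1.36 FPKM with overexpression and 0.101 to 0.159 FPKM in controls. Chondrocyte markers (Sox9 and Col2a1, 2 of 5 listed) summed to 27.3 to 30.9 FPKM with overexpression and 22.3 to 24.3 FPKM in controls, and of 5 skeletal muscle markers 0 were listed. The part of these markers in the differences below was not tested. In such bulk libraries, fewer cells of a type and less RNA per cell cannot be told apart.

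The stretches upstream of the start sites of Gdpd2 and Gdpd1 are shown because these were the members whose groups did not overlap, both higher with overexpression. Each runs 5′ to 3′ over the 250 bases before the RefSeq start site (build GRCm38.p6), on the plus strand at chrX:100729597-100729846 for Gdpd2 and on the minus strand at chr11:87074138-87074387 for Gdpd1. Capitals mark a match to TATAAA, the core of a TATA box.
Gdpd2: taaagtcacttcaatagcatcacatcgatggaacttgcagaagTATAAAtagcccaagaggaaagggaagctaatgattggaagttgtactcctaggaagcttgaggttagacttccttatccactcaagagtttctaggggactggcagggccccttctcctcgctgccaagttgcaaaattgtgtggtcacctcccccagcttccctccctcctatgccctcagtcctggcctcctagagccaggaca
Gdpd1: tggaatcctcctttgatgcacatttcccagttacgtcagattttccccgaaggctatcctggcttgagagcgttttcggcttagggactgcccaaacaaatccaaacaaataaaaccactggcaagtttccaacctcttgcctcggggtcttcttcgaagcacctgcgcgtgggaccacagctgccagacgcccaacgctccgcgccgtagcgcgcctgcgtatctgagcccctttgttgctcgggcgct

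The windows of both genes were searched on both strands over 300 bases, from 250 before to 50 after the start site. TATAAA began at position -207 from the start site of Gdpd2 and was not in the window of Gdpd1; 13.6% of all 32851 RefSeq windows hold it. The palindrome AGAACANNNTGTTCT, a consensus of the glucocorticoid receptor's binding element, was in neither window, as in all but 3 of the 32851. The 6-letter arm AGAACA, which the palindrome contains, was in neither window and is in 19.0% of all windows. The Gdpd1 window held 25 CG dinucleotides and 58.3% G and C, and that of Gdpd2 held 2 CG dinucleotides and 52.0% G and C. A second RefSeq start of Gdpd2, whose window lies within annotated first exons, held 9 CG dinucleotides, 60.3% G and C and no match to these letters. The table has no window for Gdpd5.

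Gdpd2 (ENSMUSG00000019359) lies on the plus strand of chromosome X, from 100729873 to 100738895 (GRCm38), with 10 merged exon blocks of 4609 bases in all. It had an FPKM of 12.8, 11.7 and 12.9 in overexpression 1 to 3 and of 2.54, 2.37 and 2.33 in control 1 to 3. Every overexpression library was thus far above every control, and the spread within a group was small beside the gap. The means were 12.4 ± 0.678 with overexpression and 2.41 ± 0.107 in controls (SD, n = 3 each), a 5.15-fold difference of means. These values rest on 1076, 1002 and 3483 reads in overexpression 1 to 3 and on 233, 382 and 175 reads in control 1 to 3. On the log2(FPKM + 1) scale the difference, overexpression minus control, was 1.98 (SE 0.07). A positive difference of at least this size was found for 15 of the 13120 genes tested, Gdpd2 included (0.114%). The log2 fold change in the authors' deposited table is 2.37. Among all listed genes, the mean level of Gdpd2 stood at percentile 72.2 with overexpression and at percentile 30.6 in controls. The gene is also in the authors' deposited table of 310 genes that changed by 2-fold or more and passed their p-value threshold.

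Gdpd1 (ENSMUSG00000061666), the lysophospholipase D gene, lies on the minus strand of chromosome 11, from 87033867 to 87074062, and has 10 exon blocks of 2336 bases. Its FPKM was 11.0, 11.96 and 11.4 in overexpression 1 to 3 and 6.96, 6.49 and 7.11 in control 1 to 3. The groups did not overlap here either, but they stood closer together than those of Gdpd2. Means were 11.46 ± 0.469 with overexpression and 6.85 ± 0.321 in controls (SD, n = 3 each), a 1.67-fold difference of means, from 471 to 1561 reads per overexpression library and 270 to 530 reads per control library. The log2 difference was 0.67 (SE 0.07), a size that 1.68% of the genes tested reached in the same direction. In the authors' deposited table its log2 fold change is 0.75, below 2-fold, and it is not among those 310 genes.

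Gdpd5 (ENSMUSG00000035314), the close relative of Gdpd2, is on the plus strand of chromosome 7, from 99381414 to 99461877, and was the lowest of the 4 genes. Its FPKM was 1.83, 1.57 and 1.96 in overexpression 1 to 3 and 1.40, 1.70 and 1.61 in control 1 to 3. The groups overlapped, since overexpression 2 lay below control 2 and control 3. Means were 1.79 ± 0.194 with overexpression and 1.57 ± 0.154 in controls (SD, n = 3 each), and the log2 difference of 0.12 had an SE of 0.09. Between 177 and 774 reads stood behind each value.

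Gde1 (ENSMUSG00000033917) is on the minus strand of chromosome 7, from 118688545 to 118705778, and was the highest of the 4 genes. Its FPKM was 21.6, 21.2 and 20.6 in overexpression 1 to 3 and 19.7, 20.7 and 19.2 in control 1 to 3. The groups overlapped only because overexpression 3 lay just below control 2, the pair of deepest libraries. Means were 21.1 ± 0.474 with overexpression and 19.9 ± 0.796 in controls (SD, n = 3 each), with a log2 difference of 0.09 (SE 0.06). Of these 4 genes, 2 had groups that did not overlap, both higher, against 14.7% of all genes tested that were higher and 16.1% that were lower without overlap. Likewise 2 of the 4 were among the genes called higher at an adjusted p under 0.05, against 6.22% of all genes tested, with 5.84% called lower. Since the choice of the genes rests on this comparison, nothing is read from either count.

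The family holds a further 3 genes. Gpcpd1, which encodes the cytosolic enzyme that splits glycerophosphocholine, had an FPKM of 3.998, 4.08 and 3.15 in overexpression 1 to 3 and 4.06, 3.65 and 4.04 in control 1 to 3. Its log2 difference of -0.056 (SE 0.10) did not pass limma's test (adjusted p = 0.775), with a 95% interval of -0.27 to 0.16. Gdpd3, another lysophospholipase D, had 0.825, 0.956 and 1.006 FPKM in overexpression 1 to 3 and 1.08, 0.956 and 1.18 FPKM in control 1 to 3. It rests on 33 to 129 reads per library, and its mean of 1.001 FPKM over all libraries is just above the filter of 1. On the log2 scale it differed by -0.10 (SE 0.09), with a 95% interval of -0.30 to 0.10 and an adjusted p = 0.532 by limma. Gdpd4 was not listed and so was not analysed here.

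**Figure D1:**
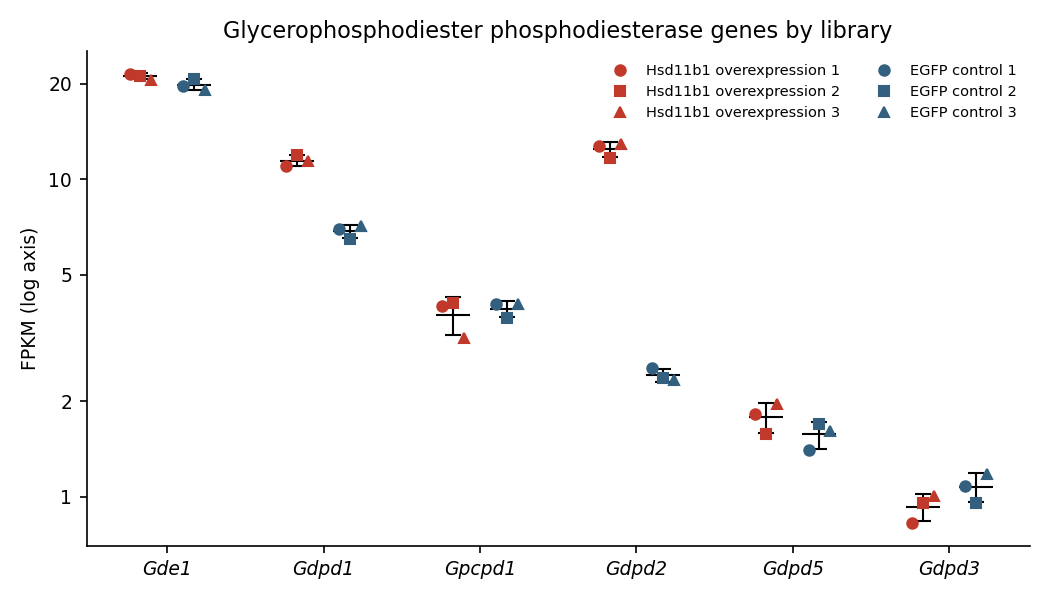
FPKM on a log axis of the 6 listed family genes in each library, with overexpression in red left of control in blue; the lines are group means and the bars SD (n = 3). Gdpd2 sits at 11.7 to 12.9 with overexpression and 2.33 to 2.54 in controls, and Gdpd1 at 11.0 to 11.96 with overexpression and 6.49 to 7.11 in controls, while the groups of the other genes overlap.

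FPKM is scaled by merged exon length, so levels can also be set between genes, but only within a limit. The merged length counts every annotated exon, and it was 4609 bases from 5 transcript models for Gdpd2 and 2336 bases from 1 for Gdpd1. Order, ratios and shares between genes therefore depend in part on the annotation. With overexpression the order was Gde1 (21.1), Gdpd2 (12.4), Gdpd1 (11.46), Gpcpd1 (3.74), Gdpd5 (1.79) and Gdpd3 (0.929 FPKM). The ranges of Gdpd2 and Gdpd1 overlapped, and those of the other neighbours in this order did not. In controls the order was Gde1 (19.9), Gdpd1 (6.85), Gpcpd1 (3.92), Gdpd2 (2.41), Gdpd5 (1.57) and Gdpd3 (1.07 FPKM), and no neighbouring ranges overlapped. Gdpd2 thus had rank 2 with overexpression and rank 4 in controls. Its FPKM was 1.16, 0.9748 and 1.13 times that of Gdpd1 in overexpression 1 to 3 and 0.365, 0.365 and 0.329 times in control 1 to 3.

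The summed level of the 6 listed family genes was 52.0, 51.4 and 51.0 FPKM in overexpression 1 to 3 and 35.7, 35.9 and 35.4 FPKM in control 1 to 3. Gdpd2 made up 22.7% to 25.3% of that sum with overexpression and 6.59% to 7.10% in controls. Gde1 made up 40.4% to 41.5% with overexpression and 54.1% to 57.7% in controls, while its own ranges overlapped. Without Gdpd2 and Gdpd1, the other genes summed to 28.2, 27.8 and 26.7 FPKM in overexpression 1 to 3 and 26.2, 27.0 and 26.0 FPKM in control 1 to 3. These last ranges overlap, and most of the gap in the family sum lay in Gdpd2 and Gdpd1. These genes were set apart because their groups were already seen not to overlap, so the split is a description.

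**Figure D2:**
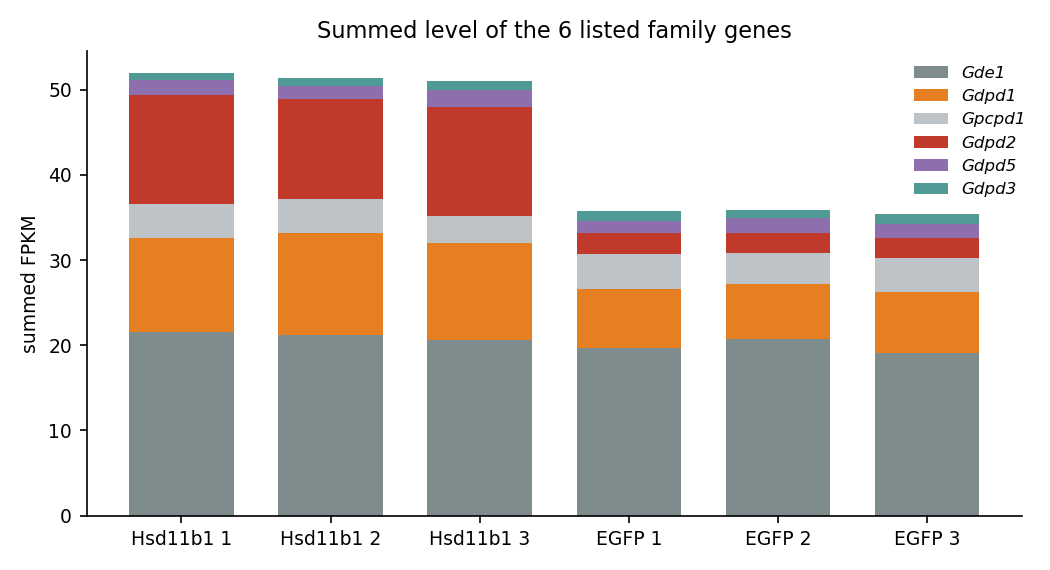
Stacked FPKM of the 6 listed family genes in each library, overexpression libraries left and controls right. The sums are 51.0 to 52.0 FPKM with overexpression and 35.4 to 35.9 FPKM in controls, and the red (Gdpd2) and orange (Gdpd1) parts differ most between the groups.

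Another annotated gene overlaps the 3′ end of Gdpd2 on the opposite strand. Gm14866 (ENSMUSG00000085314, a processed transcript, chromosome X, 100736983 to 100740929) has 2118 exon bases. Of these, 799 lie within exons of Gdpd2, 990 within its introns and 329 outside it. Gm14866 had an FPKM of 8.13, 8.12 and 8.55 in overexpression 1 to 3 and 1.80, 1.46 and 1.22 in control 1 to 3. The groups were as far apart as those of Gdpd2, with a 5.54-fold difference of means and a log2 difference of 1.90 (SE 0.09). Its reads came to 29.3%, 32.0% and 30.5% of those of Gdpd2 in overexpression 1 to 3 and to 32.6%, 28.3% and 24.0% in control 1 to 3. The ranges of this ratio overlap between the groups. The library kit keeps strand, but the strand setting of the counting is not given in the sources used here, so the reads of the pair cannot be told apart.

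Gde1 and Gdpd3 also have opposite-strand partners. Gm45236, a 229-base model that lies wholly within a Gde1 exon, had 16.7, 18.5 and 18.5 FPKM in overexpression 1 to 3 and 17.5, 16.4 and 15.6 FPKM in control 1 to 3. Its reads came to 10.5% to 12.1% of those of Gde1 in every library, and its bases make up 13.5% of the Gde1 exon bases. Gm9967 shares 298 exon bases with Gdpd3 and had 0.524 to 0.782 FPKM with overexpression and 0.639 to 0.709 FPKM in controls. The reads of these pairs cannot be told apart either. No gene model overlapped Gdpd1 or Gdpd5, so the difference of Gdpd1 has no such partner.

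**Figure D3:**
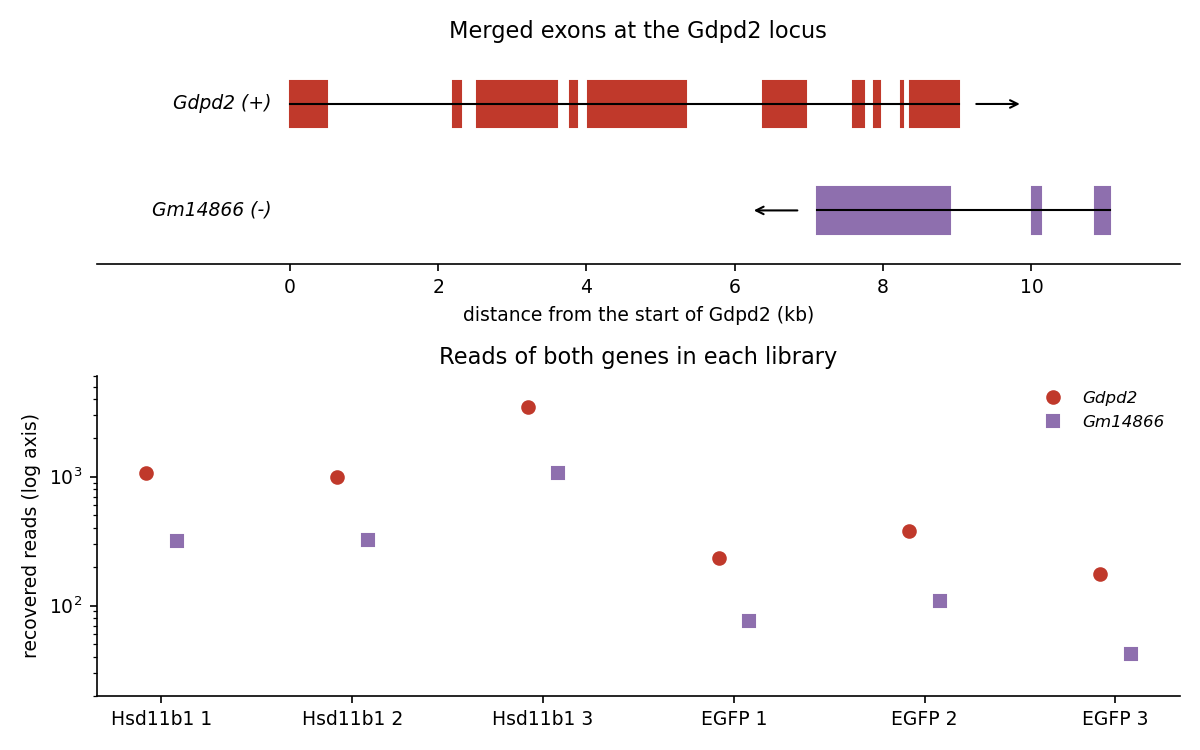
Above, merged exons of Gdpd2 (plus strand) and Gm14866 (minus strand) by distance from the start of Gdpd2 in kb, with arrows in the direction of transcription. Below, recovered reads of both genes on a log axis in each library: the Gm14866 points stay below those of Gdpd2 by a like distance, at 24.0% to 32.6% of its reads.

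The nearest listed protein-coding genes on either side of the 6 listed family genes were sought, 12 in all. Shld1, 99.2 kb from Gpcpd1, is listed under its identifier, but values were looked up by symbol, which did not find it. Its values were therefore not used here. Of 11 such genes tested, 3 rose, 1 fell and 7 did not pass (limma, adjusted over all genes), against 12.1% of all genes called in either direction. Their median log2 difference was 0.067, against -0.013 for all genes tested. Kif4, a mitotic kinesin gene that ends 2.7 kb before Gdpd2 on the same strand, fell: it had 12.5, 12.7 and 12.5 FPKM in overexpression 1 to 3 and 20.6, 16.8 and 16.8 FPKM in control 1 to 3 (log2 difference -0.49, SE 0.09, adjusted p = 0.00761). Dlg3, a synaptic scaffold gene 28.8 kb beyond Gdpd2, rose to 10.4 ± 0.316 FPKM with overexpression, against 7.35 ± 0.584 in controls (SD, n = 3 each; log2 difference 0.45, adjusted p = 0.00520). The neighbours of Gdpd2 thus went in opposite directions.

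Ypel2, 40.2 kb from the 3′ end of Gdpd1, rose to 10.3 ± 0.229 FPKM with overexpression, against 7.17 ± 0.336 in controls (SD, n = 3 each; log2 difference 0.46, adjusted p = 0.00252). Smg8, a nonsense-mediated decay factor gene 3.7 kb from its 5′ end, had 8.64 FPKM with overexpression and 8.22 FPKM in controls (adjusted p = 0.604). Beside Gdpd3, Ypel3 passed at 8.66 ± 1.007 with overexpression and 6.22 ± 0.789 FPKM in controls (adjusted p = 0.0353). The call ended on leaving out any library except control 1 (adjusted p up to 0.107). The MAP kinase gene Mapk3, 0.5 kb before Gdpd3, had 58.2 FPKM with overexpression and 55.7 FPKM in controls (adjusted p = 0.731). The neighbours of Gdpd5, Gde1 and Gpcpd1 that were tested (Serpinh1, Rps3, Coq7, Ccp110 and Cds2) did not pass, with log2 differences of -0.25 to 0.17.

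Genes that handle the substrates and products of these enzymes were then counted from lists. For lysophosphatidic acid, a product of Gdpd1, 7 of 11 genes were tested: 3 rose, 0 fell and 4 did not pass, with a median log2 difference of -0.035. Of all genes tested, 6.22% were called higher and 5.84% lower, and their median log2 difference was -0.013. Plpp3, a phosphatase that removes extracellular lysophosphatidic acid, had 17.7, 19.5 and 19.2 FPKM in overexpression 1 to 3 and 10.5, 9.82 and 10.4 FPKM in control 1 to 3 (log2 difference 0.81, SE 0.07, limma adjusted p = 0.000188). Its groups were clear of each other. Plpp1, of the same family, rose to 44.0 ± 1.74 FPKM with overexpression, against 34.4 ± 1.90 in controls (adjusted p = 0.0123), and lost its call without overexpression 2 (adjusted p = 0.0688). Enpp2, which encodes autotaxin, the secreted enzyme that makes lysophosphatidic acid, rose to 2.04 ± 0.138 FPKM, against 1.12 ± 0.204 in controls (log2 difference 0.53, adjusted p = 0.00860; SD, n = 3 each). Plpp2 had 41.3 ± 3.66 FPKM with overexpression and 47.8 ± 7.50 in controls (adjusted p = 0.336), and the receptor genes Lpar1, Lpar2 and Lpar4 did not pass. Lpar6 was below the filter, and Liph, Lpar3 and Lpar5 were not listed.

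Of 6 genes of N-acylethanolamine metabolism, the lipid amides on whose pathway Gde1 and Gdpd1 lie, 4 were tested: 1 rose and 3 did not pass, against 6.22% of all genes tested called higher, with a median log2 difference of 0.23 (-0.013 over all genes). Naaa, an acid amidase that degrades N-acylethanolamines, had 18.0, 19.8 and 20.1 FPKM in overexpression 1 to 3 and 13.7, 14.8 and 13.0 FPKM in control 1 to 3. The groups did not overlap, and the gene passed limma's test at an adjusted p = 0.00539, higher by 0.46 (SE 0.08) on the log2 scale. Faah, the other main amidase, had 2.17 ± 0.102 FPKM with overexpression and 1.595 ± 0.292 in controls (SD, n = 3 each; adjusted p = 0.0987). The synthetic enzyme gene Napepld (adjusted p = 0.293) and the lipase gene Abhd4 (adjusted p = 0.343) had log2 differences of 0.17 and 0.11.

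Choline and ethanolamine phospholipid turnover showed 1 of 25 tested genes higher and 0 lower, of 28 on the list, against 6.22% and 5.84% of all genes tested, with a median log2 difference of 0.023 (-0.013 over all genes). The higher gene was Pla2g15, a lysosomal phospholipase A2, at 9.78, 9.46 and 9.50 FPKM in overexpression 1 to 3 and 5.71, 8.02 and 5.82 FPKM in control 1 to 3 (log2 difference 0.51, SE 0.11, limma adjusted p = 0.0211). The deep control 2 was the closest of the controls to the overexpression libraries, and the call ended when any other library was left out (adjusted p up to 0.0795). Chka, the choline kinase gene, had 6.52 FPKM with overexpression and 5.41 FPKM in controls (adjusted p = 0.111), and the choline transporter gene Slc44a2 had 9.12 FPKM with overexpression and 7.88 FPKM in controls (adjusted p = 0.112). Lpcat3, a lysophospholipid acyltransferase gene, had 21.2 FPKM with overexpression and 18.6 FPKM in controls (adjusted p = 0.108), and Pcyt2, of phosphatidylethanolamine synthesis, had 24.8 FPKM with overexpression and 25.7 FPKM in controls (adjusted p = 0.805). Enpp6, Phospho1 and Etnk2 were not listed.

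Among 14 genes of inositol and glycerol phosphate handling, 10 were tested: 0 rose, 2 fell and 8 did not pass, against 6.22% of all genes tested called higher and 5.84% lower, with a median log2 difference of -0.11 (-0.013 over all genes). Gpd2, the mitochondrial glycerol-3-phosphate dehydrogenase gene, fell to 9.73 ± 0.580 FPKM with overexpression, against 12.5 ± 0.757 in controls (SD, n = 3 each; log2 difference -0.33, SE 0.07, limma adjusted p = 0.0198). It lost its call without overexpression 1, overexpression 3 or control 3 (adjusted p up to 0.0842). Pgp, a phosphatase that acts on glycerol 3-phosphate, fell to 16.7 ± 2.23 FPKM, against 23.4 ± 3.47 in controls (adjusted p = 0.0441), and its call was lost without overexpression 1, overexpression 2, control 2 or control 3 (adjusted p up to 0.143). Impa2, an inositol monophosphatase gene, had 6.32 FPKM with overexpression and 7.64 FPKM in controls (adjusted p = 0.137), and Cdipt, the phosphatidylinositol synthase gene, had 22.6 FPKM with overexpression and 22.5 FPKM in controls (adjusted p = 0.955). The acyltransferase gene Gpam had 10.4 FPKM with overexpression and 11.4 FPKM in controls (adjusted p = 0.267).

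Of 12 genes for GPI-anchored targets and other anchor-releasing enzymes, 6 were tested, 0 passed in either direction by limma (12.1% of all genes tested did), and the median log2 difference was -0.093 (-0.013 over all genes). At an unadjusted p under 0.05 there were 2, Gpc4 and Gpc6, and voom on recovered reads called 0. Gpc1 and Gpc4, which encode GPI-anchored glypicans, were the highest, with 58.3 ± 4.63 and 30.3 ± 0.765 FPKM with overexpression and 60.6 ± 6.99 and 27.3 ± 1.31 FPKM in controls (SD, n = 3 each; adjusted p = 0.803 and 0.185). Gpc6 had 5.24 ± 0.153 FPKM with overexpression and 6.33 ± 0.795 in controls (adjusted p = 0.154, and 0.0358 without control 2). Reck, the membrane-anchored protease inhibitor named above, had 6.54 to 6.63 FPKM with overexpression and 5.89 to 6.52 FPKM in controls (adjusted p = 0.567). The urokinase receptor gene Plaur (adjusted p = 0.460) and the phospholipase D gene Gpld1 (adjusted p = 0.487) had log2 differences of -0.20 and -0.13. Prdx1, a peroxiredoxin known to act on the Gdpd5 protein, had 90.5 ± 13.0 FPKM with overexpression and 99.3 ± 3.88 in controls (adjusted p = 0.462), and Rgs16, whose product binds that of Gde1, was not listed.

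**Figure D4:**
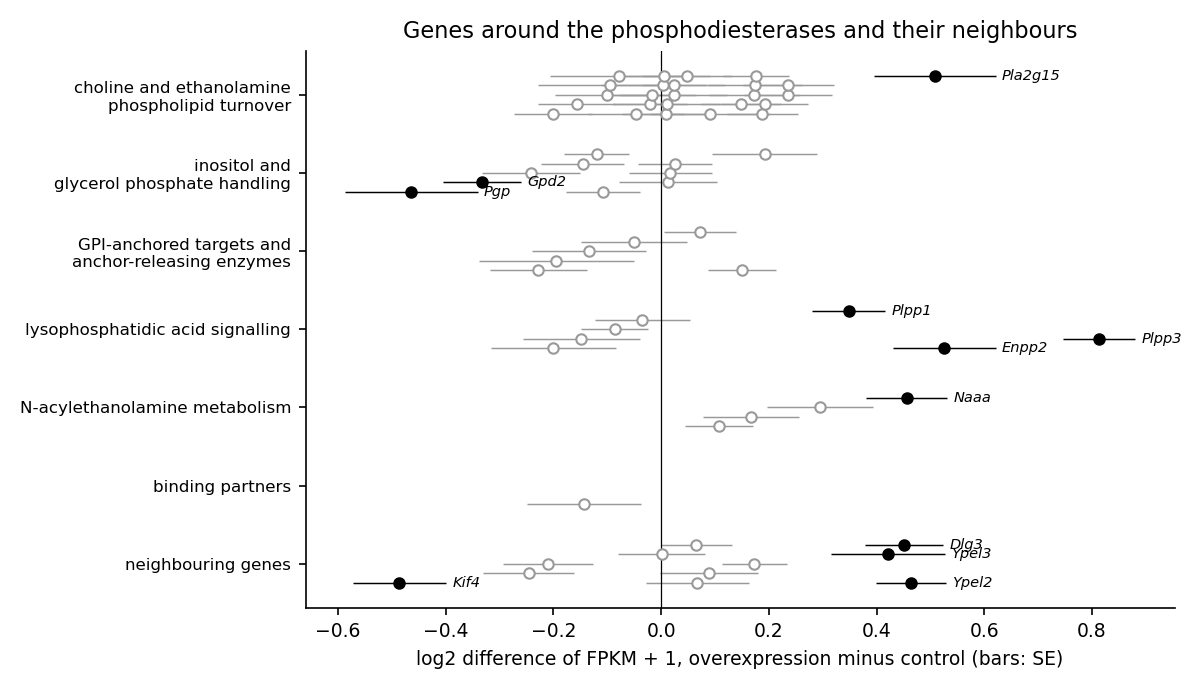
Log2 differences (overexpression minus control, with SE) of the tested genes of each list and of the neighbouring genes; filled points with names passed the adjusted threshold. Plpp3, at 0.81, lies farthest right, and most points lie between -0.25 and 0.25.

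The genes whose log2(FPKM + 1) followed Gdpd2 most closely over the 6 libraries, by Pearson's r and without predicted genes and pseudogenes, were Mef2b (r = 0.9997), Clint1 (r = 0.9996), AC131081.1, Serpina3m and Actn3 (r = 0.998 or above). All share the gap between the groups. Their sizes differ: Clint1 had 20.9 FPKM with overexpression and 16.2 FPKM in controls, whereas Actn3 had 16.9 FPKM with overexpression and 1.23 FPKM in controls. Closest to Gdpd1 were Teddm2, Synm and Zfp521 (r = 0.998 or above), to Gdpd5 were Zfp408, Agtrap and Psmf1 (0.989 to 0.993), and to Gde1 were Crcp, Nbdy and Cbr4 (0.979 to 0.986). Between Gdpd2 and Gdpd1 themselves r was 0.986, a height that the gap between the groups in both genes sets. Within each group the order of the libraries differed between these genes. With 3 libraries per group, this cannot show whether they vary together. Overexpression 2 was the lowest of its group for Gdpd2 (11.65 FPKM) and the highest for Gdpd1 (11.96 FPKM). Control 3 was the lowest of its group for Gdpd2 (2.335 FPKM) and the highest for Gdpd1 (7.107 FPKM). All these r values describe 6 points that share libraries and depth.

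The sizes of the 4 differences depend on the constant added to the FPKM. With 0.1 in place of 1 the log2 difference of Gdpd2 was 2.32 and that of Gdpd1 0.73, and with 5 they were 1.23 and 0.47. The order of the genes by difference, Gdpd2 above Gdpd1 above the other members, held in every setting run.

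**Figure D5:**
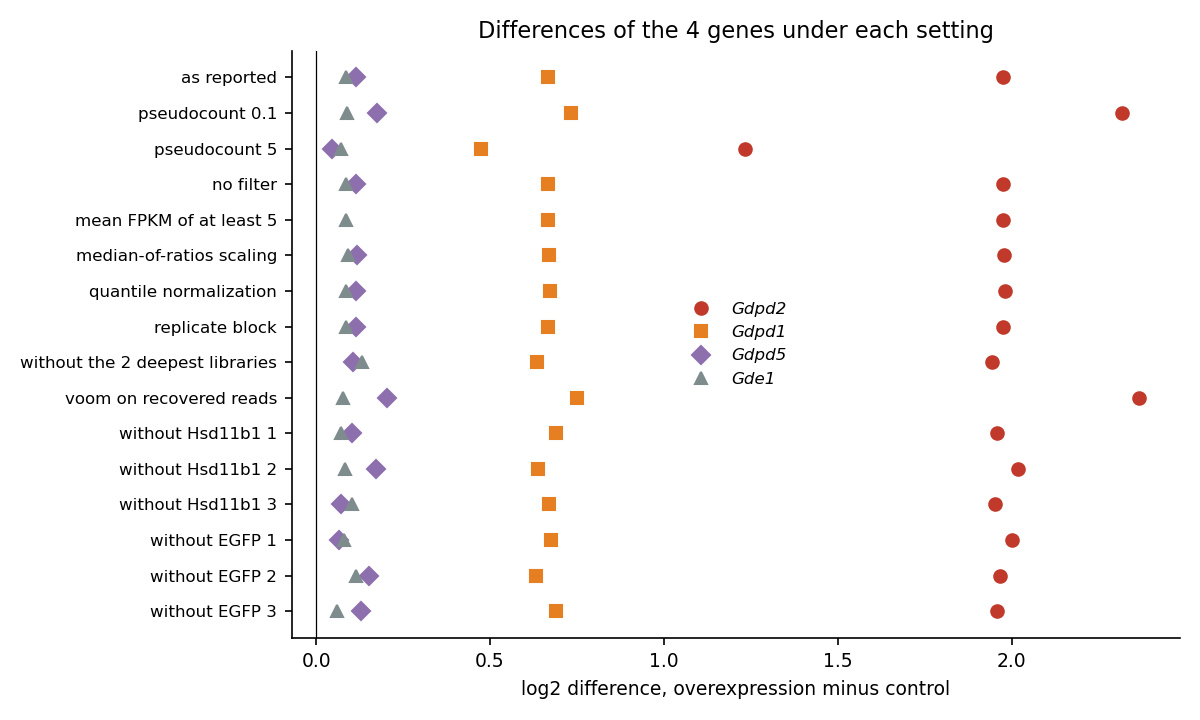
Log2 differences (overexpression minus control) of the 4 genes under the reported setting and each alternative. The Gdpd2 points lie at 1.23 to 2.37 and the Gdpd1 points at 0.47 to 0.75, while Gdpd5 and Gde1 stay near 0 in each.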

How the data were processed

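The authors deposited FPKM per library and, per gene, their own log2 fold change with a p-value before and after adjustment. Build mm10 and the tools featureCounts 1.6.3, HISAT2 2.1.0 and cutadapt 2.5 are those of the submitters' processing notes; annotation, strand setting and differential test were not given in the sources used. Read numbers were recovered from FPKM with merged exon lengths of GENCODE M21 (GRCm38) and the total giving whole reads: 93.7% to 94.9% of values up to 1000 reads per library were whole within 0.05. The test was limma 3.58.1 (R 4.3.3, trend) on log2(FPKM + 1), 3 overexpression against 3 control libraries, for 13120 genes averaging 1 FPKM or more, two-sided, Benjamini-Hochberg adjusted over all of them, threshold 0.05. A difference on this scale is smaller than that of the means for low genes. The fit was also run on simulated reads with the same spread setting for every gene and no batch. That run does not check the calls under the spread of these libraries. Genes and lists were chosen with earlier results of these data known. Named were the family, Hsd11b1, neighbours, of each list the 4 smallest p and 2 highest levels, and the 5 (Gdpd2) or 3 genes most alike; Reck and the Lpar genes were chosen after their values were seen.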

Additional observations from a re-analysis of the deposited data

How the results depend on the processing

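The log2 difference of Gdpd2 was 2.32 with a pseudocount of 0.1, 1.23 with a pseudocount of 5 and 2.37 with voom on recovered reads, and that of Gdpd1 was 0.73, 0.47 and 0.75. Leaving out 1 library gave 1.95 to 2.02 for Gdpd2, 0.63 to 0.69 for Gdpd1, 0.066 to 0.17 for Gdpd5 and 0.061 to 0.12 for Gde1. Without the 2 deepest libraries Gde1 had 0.13. The 4 genes kept a positive difference in each setting run; Gdpd5 was not fitted at a mean FPKM of at least 5. Genes called over the whole table numbered 1582, 1920 with voom on recovered reads, and 895 to 1337 with 1 library left out, the lowest without overexpression 2. Counts called in the lists ran, with 1 library left out, from 0 to 1 for choline and ethanolamine turnover, 0 to 2 for inositol and glycerol phosphate, 0 to 1 for GPI-anchored targets, 2 to 3 for lysophosphatidic acid and 3 to 4 for neighbours. The inositol and glycerol phosphate count was 1 with no filter and 0 without the 2 deepest libraries. With voom, the choline and N-acylethanolamine counts were 2 each (Chka and Faah passing). Among 38 tested genes, calls were lost 23 times and gained 3 times over these settings. No pairing by replicate number was seen: deviations from the group means correlated at 0.209, -0.294 and -0.027 for numbers 1 to 3. Overexpression 3 correlated best with control 2. Deviations within so few libraries are tied to one another, so this check cannot exclude a pairing. With a replicate block, 1316 genes were called and Ypel3 lost its call; the Gdpd2 difference was 1.98. Of the 6 listed family genes, Gdpd3 has the least depth, at 33 to 129 reads per library. The causes of these shifts were not tested.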
